A study of Mus musculus with 12 samples.

Results

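Collagens are the structural proteins of the extracellular matrix, and the genes described here are the collagen chains, chosen as every gene whose symbol is Col, a type number, the letter a and a chain number. In all, 39 such chains were listed among the 17505 genes of 2 expression tables. The comparison of muscle stem cells (MuSCs) with myoblasts listed 36 chains among 16503 genes, the comparison of genotypes listed 38 among 16169 genes, and 35 chains were in both. By protein structure 11 of the 39 are fibrillar chains, 8 are chains of basement membranes and 20 belong to other types. Another 6 mouse chain symbols of the class list were not analysed here.

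A collagen molecule is a rope of alpha chains wound around each other, and a type is defined by which chains assemble together. Fibrillar types build the banded fibrils of tendon and interstitial matrix, type IV builds the sheet of basement membranes, type VI forms beaded filaments beside them, and fibril-associated and transmembrane types link fibrils and cells. Quiescent MuSCs lie under the basal lamina of the myofiber and make part of their own niche matrix. Type V collagen is known there as a ligand of the calcitonin receptor, and type VI collagen as a niche component.

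MuSCs were sorted from mouse hindlimb muscle as cells positive for ITGA7 and Hoechst and negative for CD31, CD45, CD11b and SCA1, and RNA of 1000 cells per library was amplified with SMART-seq. In the first comparison 3 WT mice each gave 1 library of freshly isolated MuSCs and 1 library of primary myoblasts (replicates 04, 05 and 06), the latter after 3 days in serum and bFGF, on collagen-coated plates according to the general culture protocol. In the second comparison MuSCs came from male mice of 5 to 6 weeks, 3 WT and 3 Nedd4L-cKO (replicates 01, 02 and 03). The mouse line was Nedd4L fl/fl with Pax7 cre/+ on a C57BL/6 background, so that the ubiquitin ligase Nedd4L is deleted in cells that express the stem cell factor Pax7 and in their descendants. Which of these alleles the WT mice carry is not given in the sources used here. For the libraries of the first comparison the age and sex of the mice are not stated. The paper's general methods say only that in vitro work used primary myoblasts of male mice.

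Values are counts after the authors' DESeq2 normalization, expressed here as RPM against 1 mean total per table. These totals ran from 33189802 to 37595659 in the first table and from 40323468 to 50687122 in the second, and the read depth behind them is unknown. Fold changes and adjusted p-values are from limma on log2(RPM + 1), a scale that understates the change of genes near 0, with standard errors (SE) and n = 3 libraries per group throughout. The targeted gene, Nedd4l, was at 70.2, 96.4 and 66.7 RPM in WT and 30.2, 36.3 and 22.5 RPM in Nedd4L-cKO MuSCs, and gene totals do not separate reads of the deleted part. Of 10 MuSC markers all were present in both MuSC groups of the second table, with Pax7 at 183, 302 and 223 RPM in WT libraries. Of the genes behind the negative sort, Ptprc (CD45) was at no more than 0.533 RPM, Itgam (CD11b) at no more than 1.59 RPM and Ly6a (SCA1) at no more than 2.69 RPM in the 12 libraries, while Pecam1 (CD31) ran from 7.48 to 49.9 RPM. Among fibro-adipogenic markers Pdgfra was at no more than 2.83 RPM, whereas Gsn and Dcn were at up to 1311 and 2208 RPM. In these bulk samples fewer cells of a type and less RNA per cell cannot be told apart.

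Collagen mRNA made up a smaller share of the total in myoblasts than in freshly isolated MuSCs. The 36 chains together held 0.432, 0.4602 and 0.419% of normalized counts in the 3 MuSC libraries and 0.0979, 0.132 and 0.0906% in the myoblast libraries of the same mice, without overlap. Of the 33 chains that passed the filter on low values, 22 (66.7%) passed the threshold of 0.05 on limma's adjusted p, 15 lower and 7 higher in myoblasts. Over all tested genes the same rule called 42.8%, 20.6% lower and 22.2% higher. The median log2 fold change was -0.54 over the chains and 0.04 over all tested genes. Groups did not overlap for 22 of the 33 chains (66.7%), against 55.2% of all tested genes, and 24 (72.7%) had an unadjusted p under 0.05, against 51.5%. Leaving out MuSC replicate 05, myoblast replicate 05 or myoblast replicate 06 lowered the 7 higher calls to 4, while the 15 lower calls stayed at 15 in each of the 6 fits without 1 library.

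The decrease was found in both of the large structural classes. Among fibrillar chains 5 of 9 tested were lower and 1 higher, among basement membrane chains 4 of 7 were lower and 1 higher, and among the other types 6 of 17 were lower and 5 higher. The beaded filament chains of type VI were lower in 3 of 3 tested. Members of the short-chain network, types VIII and X, were higher in 2 of 2 tested, and of the 4 tested transmembrane chains 2 were higher and 1 was lower. The higher chains of these 2 groups passed the filter on low values through the myoblast libraries, so their counts carry no support. Of the type VI chains, Col6a6 reached the minimum of that filter in myoblast replicate 04 alone.

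**Figure D1:**
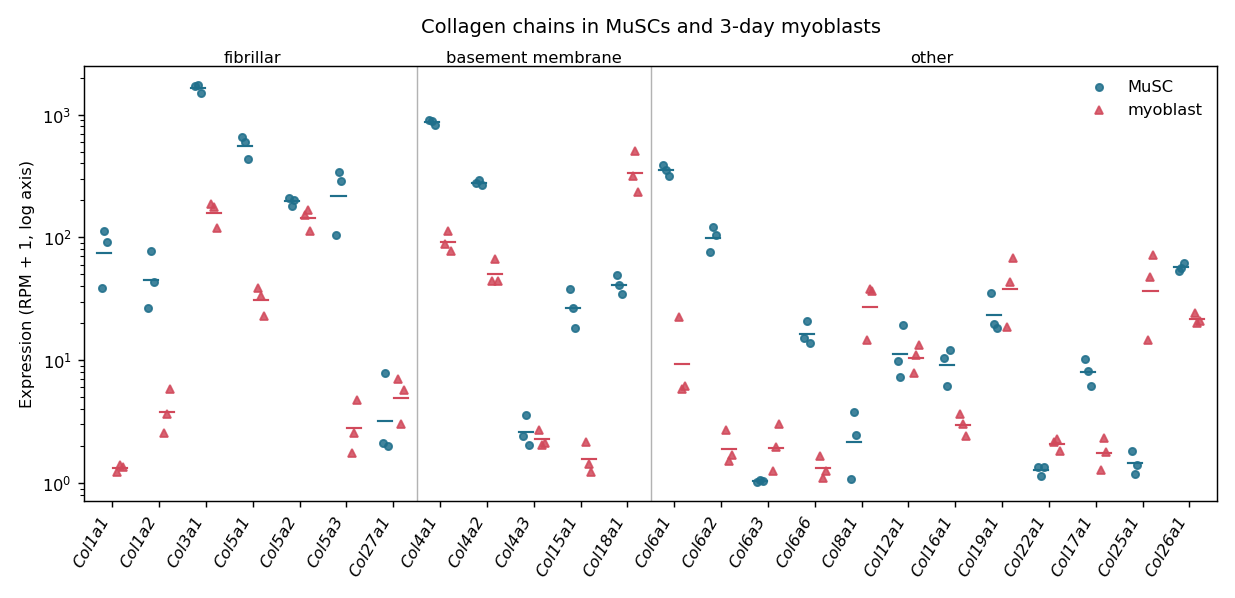
Expression of the 24 named collagen chains of the first table, as RPM + 1 on a log axis, in 3 MuSC libraries (circles) and 3 myoblast libraries (triangles), with the mean of the log values as a bar. Circles lie above triangles for types I, III and XV and the chains Col4a1, Col4a2, Col5a1, Col5a3, Col6a1, Col6a2 and Col6a6, and below them for Col18a1, Col25a1 and Col8a1.

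Col3a1, which forms the type III homotrimer of compliant tissues, was the most abundant collagen chain of MuSCs. Its values were 1699, 1725 and 1508 RPM in MuSCs and 185, 175 and 117 RPM in myoblasts. Every MuSC library was above every myoblast library, and the difference on the log2 scale was -3.39 (SE 0.21, limma adjusted p = 7.58e-06), or 10.3-fold lower as a ratio of mean RPM. Its promoter is shown because Col3a1 leads the collagens of all 9 MuSC libraries. The stretch covers 250 bases before and 50 bases after the RefSeq start of Col3a1 on the + strand of GRCm38.p6, chr1:45311288-45311587, and capitals mark a TATAAA motif.
Col3a1: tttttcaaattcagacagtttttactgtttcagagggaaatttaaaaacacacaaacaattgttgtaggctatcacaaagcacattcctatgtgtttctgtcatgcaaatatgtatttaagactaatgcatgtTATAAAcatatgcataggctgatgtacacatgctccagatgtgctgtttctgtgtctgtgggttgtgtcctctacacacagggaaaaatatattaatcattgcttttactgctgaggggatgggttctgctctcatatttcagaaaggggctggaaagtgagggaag

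Type I collagen, the main fibril of tendon and of muscle connective tissue, was a minor type in these MuSCs and was lower still in myoblasts. Col1a1 was at 37.9, 112 and 91.4 RPM in MuSCs and 0.223, 0.3997 and 0.336 RPM in myoblasts (log2 fold change -5.81, SE 0.42, limma adjusted p = 1.77e-05). Its partner Col1a2 was at 25.8, 76.2 and 42.5 RPM in MuSCs and 1.54, 2.66 and 4.86 RPM in myoblasts (-3.56, SE 0.46, limma adjusted p = 3.88e-04). Neither chain overlapped between the groups.

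The type V chains, which nucleate fibrils and set their diameter, did not move together. Col5a1 was at 661, 595 and 429.6 RPM in MuSCs and 37.8, 32.3 and 21.9 RPM in myoblasts, a log2 difference of -4.16 (SE 0.26, limma adjusted p = 7.58e-06). Col5a3, the chain of an alternative type V trimer, was at 103, 337 and 285 RPM and 0.769, 1.56 and 3.73 RPM (-6.28, SE 0.50, limma adjusted p = 2.90e-05). Both fell in every myoblast library by a wide margin. Col5a2, the partner of Col5a1 in the main type V heterotrimer, was at 209, 178 and 202 RPM in MuSCs and 151, 166 and 113 RPM in myoblasts. Its groups did not overlap, but the difference of -0.46 (SE 0.20) missed the threshold (limma adjusted p = 0.0916).

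The ratio of Col5a1 to Col5a2, each per length of its longest coding transcript, differed between the groups. It was 2.83, 2.99 and 1.903 in the MuSC libraries and 0.223, 0.173 and 0.174 in the myoblast libraries. Per length Col5a1 was thus above Col5a2 in MuSCs and below it in myoblasts. Of 6 such ratios of partner chains, some of which share a chain, 4 did not overlap between MuSCs and myoblasts. Ratios of other gene pairs were not computed, so this count has no background share beside it, and no test was made of it.

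Among the remaining fibrillar chains, Col27a1 of the minor type XXVII was at 1.11, 6.82 and 0.989 RPM and 5.97, 2.03 and 4.76 RPM, with overlapping groups (log2 fold change 0.63, SE 0.57, limma adjusted p = 0.4001). Col11a2, a chain of the cartilage type XI, rose but stayed low and overlapped between the groups. Col24a1 did not pass the test, and the cartilage chain Col2a1 was below the filter.

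Col4a1 and Col4a2 encode the ubiquitous type IV heterotrimer of basement membranes, and both fell in myoblasts. Their genes lie head to head on chromosome 8, with RefSeq starts 21 bases apart, and the stretch is shown because 1 window holds both starts. It covers 250 bases before and 50 after the start of Col4a1 on the - strand of GRCm38.p6, chr8:11312777-11313076, and capitals mark the CCAAT box and the GC box GGGCGG, here on the opposite strand.
Col4a1: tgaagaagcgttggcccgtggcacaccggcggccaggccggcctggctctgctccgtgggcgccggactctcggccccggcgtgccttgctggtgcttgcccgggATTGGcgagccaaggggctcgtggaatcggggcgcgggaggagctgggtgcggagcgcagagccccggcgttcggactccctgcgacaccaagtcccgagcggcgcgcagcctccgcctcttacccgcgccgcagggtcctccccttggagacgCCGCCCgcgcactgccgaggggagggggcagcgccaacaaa

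Col4a1 was at 904, 881 and 823 RPM in MuSCs and 87.2, 111 and 75.97 RPM in myoblasts (log2 fold change -3.25, SE 0.19, limma adjusted p = 5.93e-06). Col4a2 was at 277, 289.5 and 264 RPM and 43.2, 65.8 and 43.3 RPM (-2.45, SE 0.21, limma adjusted p = 4.34e-05). Neither chain overlapped between the groups. The ratio of Col4a1 to Col4a2 per length was 3.32, 3.103 and 3.17 in MuSCs and 2.06, 1.73 and 1.79 in myoblasts. Per length Col4a1 was thus above Col4a2 in all 6 libraries, and by less in myoblasts.

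The other type IV chains belong to specialised basement membranes such as that of the kidney glomerulus, and they were low here. Col4a3 was at 1.42, 2.55 and 1.05 RPM in MuSCs and 1.704, 1.04 and 1.12 RPM in myoblasts, with overlapping groups (log2 fold change -0.20, SE 0.29, limma adjusted p = 0.615). Col4a4 fell, and Col4a5 did not pass the test.

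The multiplexins, proteoglycans of the basement membrane zone that release anti-angiogenic fragments, changed in opposite directions. Col15a1 was at 36.8, 25.7 and 17.3 RPM in MuSCs and 1.17, 0.418 and 0.239 RPM in myoblasts (log2 fold change -4.08, SE 0.39, limma adjusted p = 7.13e-05). Col18a1, the source of endostatin, was at 48.3, 40.2 and 33.4 RPM in MuSCs and 315, 501 and 233 RPM in myoblasts. Its groups did not overlap, the difference on the log2 scale was 3.02 (SE 0.29, limma adjusted p = 7.41e-05), and the mean was 8.62-fold higher in myoblasts. Col18a1 thereby replaced Col3a1 as the most abundant chain in each of the 3 myoblast libraries.

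RefSeq gives Col18a1 2 promoters on chromosome 10, and both are shown because Col18a1 rose while most abundant chains fell. They lie on the - strand of GRCm38.p6 at chr10:77166481-77166780 (upstream) and chr10:77113656-77113955 (downstream), each 250 bases before and 50 after a start. Capitals mark a CCAAT box and GC boxes in the first and TGGGAA, the core letters bound by the Notch effector RBPJ, in the second. Gene totals do not show which promoter was used. Of the exonic bases of Col18a1, 12.7% overlap Slc19a1 on the other strand, and reads there cannot be told apart without strand. Slc19a1 itself had means of 26.6 RPM in MuSCs and 29.8 RPM in myoblasts.
Col18a1 upstream: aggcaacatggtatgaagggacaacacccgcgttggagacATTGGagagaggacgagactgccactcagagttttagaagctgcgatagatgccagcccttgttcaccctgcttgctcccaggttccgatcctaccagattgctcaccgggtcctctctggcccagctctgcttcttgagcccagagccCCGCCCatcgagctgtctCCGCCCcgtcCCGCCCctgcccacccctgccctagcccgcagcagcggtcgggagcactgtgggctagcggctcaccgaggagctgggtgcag
Col18a1 downstream: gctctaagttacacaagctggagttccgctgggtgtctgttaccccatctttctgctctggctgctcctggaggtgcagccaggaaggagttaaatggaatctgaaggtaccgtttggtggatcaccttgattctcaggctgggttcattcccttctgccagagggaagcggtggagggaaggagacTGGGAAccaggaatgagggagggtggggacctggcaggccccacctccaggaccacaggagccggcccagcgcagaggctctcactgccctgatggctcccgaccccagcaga

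Across collagens, 30 of the 39 chains had a promoter in the RefSeq table, 32 promoters in all. On either strand of the 300 bases, TATAAA was found in 15.6% of collagen promoters and 13.6% of all 32851 promoters, CCAAT in 34.4% and 37.4%, GGGCGG in 62.5% and 35.7%, and TGGGAA in 25.0% and 25.6%. The CCAAT box read on the other strand can share bases with TGGGAA. Median GC content was 60.2% in the collagen promoters and 52.7% in all promoters, and GGGCGG consists of G and C alone. These matches describe letters in a window and not sites in use.

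Type VI collagen showed some of the largest decreases. Col6a1 was at 387, 355 and 317 RPM in MuSCs and 21.5, 4.796 and 5.13 RPM in myoblasts (log2 fold change -5.25, SE 0.47, limma adjusted p = 5.14e-05). Col6a2 was at 75.3, 121 and 103 RPM and 1.72, 0.514 and 0.677 RPM (-5.70, SE 0.34, limma adjusted p = 6.82e-06). Col6a6, a long chain related to Col6a3, was at 14.3, 19.8 and 12.8 RPM and 0.645, 0.103 and 0.258 RPM (-3.63, SE 0.33, limma adjusted p = 5.55e-05). None of these chains overlapped between the groups. Col6a3, the third chain of the usual type VI trimer, was at 0.02597, 0.0549 and 0.0459 RPM in MuSCs and 0.245, 0.953 and 2.02 RPM in myoblasts and was below the filter. Per length, Col6a1 exceeded Col6a2 by a factor of 7.58, 4.31 and 4.55 in the MuSC libraries.

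Among the fibril-associated types only a few chains changed. Col16a1 fell, from 9.33, 5.17 and 11.1 RPM in MuSCs to 2.62, 2.02 and 1.43 RPM in myoblasts (log2 fold change -1.62, SE 0.37, limma adjusted p = 0.00715). Col12a1, which decorates type I fibrils, was at 8.92, 6.34 and 18.2 RPM and 6.85, 9.96 and 12.4 RPM, overlapping (limma adjusted p = 0.875). Col19a1, a chain found in embryonic and differentiating muscle, was at 34.2, 18.7 and 17.4 RPM and 17.7, 42.1 and 66.5 RPM, a difference of 0.70 (SE 0.47) on the log2 scale that did not pass (limma adjusted p = 0.255). It passed when myoblast replicate 04 was left out (log2 fold change 1.21, limma adjusted p = 0.0188). Col22a1, known from the myotendinous junction, was at 0.354, 0.1301 and 0.3501 RPM and 1.14, 1.299 and 0.823 RPM. It rose by 0.71 on the log2 scale (limma adjusted p = 0.0206), a call lost without MuSC replicate 05 (limma adjusted p = 0.0772) or myoblast replicate 05 (0.0852).

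Of the 7 higher chains 4 were transmembrane or short-chain collagens, although the largest increase in RPM was that of Col18a1. Col25a1, a transmembrane collagen needed for motor nerve entry into muscle, was at 0.816, 0.182 and 0.4101 RPM in MuSCs and 13.5, 46.9 and 70.8 RPM in myoblasts (log2 fold change 4.67, SE 0.56, limma adjusted p = 2.62e-04). Col8a1, a network chain of vessel walls and the cornea, was at 0.0854, 2.81 and 1.45 RPM and 13.5, 36.6 and 35.3 RPM (3.64, SE 0.55, limma adjusted p = 8.86e-04). Neither overlapped. Col13a1, a transmembrane collagen of the neuromuscular junction, and Col8a2, whose groups overlapped, also rose from below 1 RPM. Among the 7 higher chains only Col18a1 reached the filter minimum of 10 normalized counts, about 0.284 RPM, in every MuSC library. Col13a1 reached it in none, Col8a2 and Col11a2 in MuSC replicate 06 alone, and Col25a1, Col8a1 and Col22a1 not in all. The chains other than Col18a1 passed the filter through the myoblast libraries, where they are high, so they add no support to the counts of higher chains. Some lower chains also missed the minimum in myoblasts: Col1a1 and Col17a1 in replicate 04, Col15a1 in replicate 06 and Col6a6 in replicates 05 and 06. With the minimum required in every library these chains were not tested, and 12 chains were called, 1 of them higher.

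Col17a1, a transmembrane chain of epithelial hemidesmosomes, fell from 9.23, 7.09 and 5.21 RPM to 0.264, 1.34 and 0.797 RPM (log2 fold change -2.20, SE 0.36, limma adjusted p = 0.00138). Col26a1, of an unclassified type, fell from 52.4, 55.6 and 60.5 RPM to 23.1, 19.2 and 20.01 RPM (-1.40, SE 0.22, limma adjusted p = 0.00101). Neither overlapped between the groups. Col7a1, Col9a3, Col20a1 and Col23a1 were tested and not called, and the growth plate chain Col10a1 was below the filter. The 12 chains without values of their own in this table ran from 0 to 8.26 RPM over the 6 libraries.

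Type by type, the collagen mRNA of the cells took another composition in culture. Divided by transcript length, type III made up 39.4, 37.6 and 37.5% of collagen mRNA in the MuSC libraries and 21.8, 16.1 and 15.7% in the myoblast libraries. Type VI made up 14.2, 13.4 and 13.5% and 3.75, 0.709 and 1.203%, and type XVIII 0.953, 0.747 and 0.706% and 31.7, 39.4 and 26.6%. Type III and type VI had smaller shares in each myoblast library than in any MuSC library, and type XVIII a larger one. Type V had shares of 16.1, 18.4 and 17.4% and 16.4, 13.6 and 13.8%, which overlapped, and in myoblasts most of it was Col5a2.

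In RPM per kilobase, the order of levels in MuSCs was led by Col3a1 (291 ± 20.9, mean ± SD, n = 3), Col4a1 (131 ± 6.32) and Col6a1 (86.1 ± 8.48), with ranges that did not overlap. Col6a1 overlapped with Col5a1 (66.5 ± 14.1), which stood above Col4a2 without overlap. Below that gap, Col4a2 overlapped with Col5a3, and Col5a3 with Col5a2. In myoblasts Col18a1 (52.7 ± 20.7) stood above Col3a1 (28.1 ± 6.44), which overlapped with Col5a2 (19.00 ± 3.68).

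**Figure D2:**
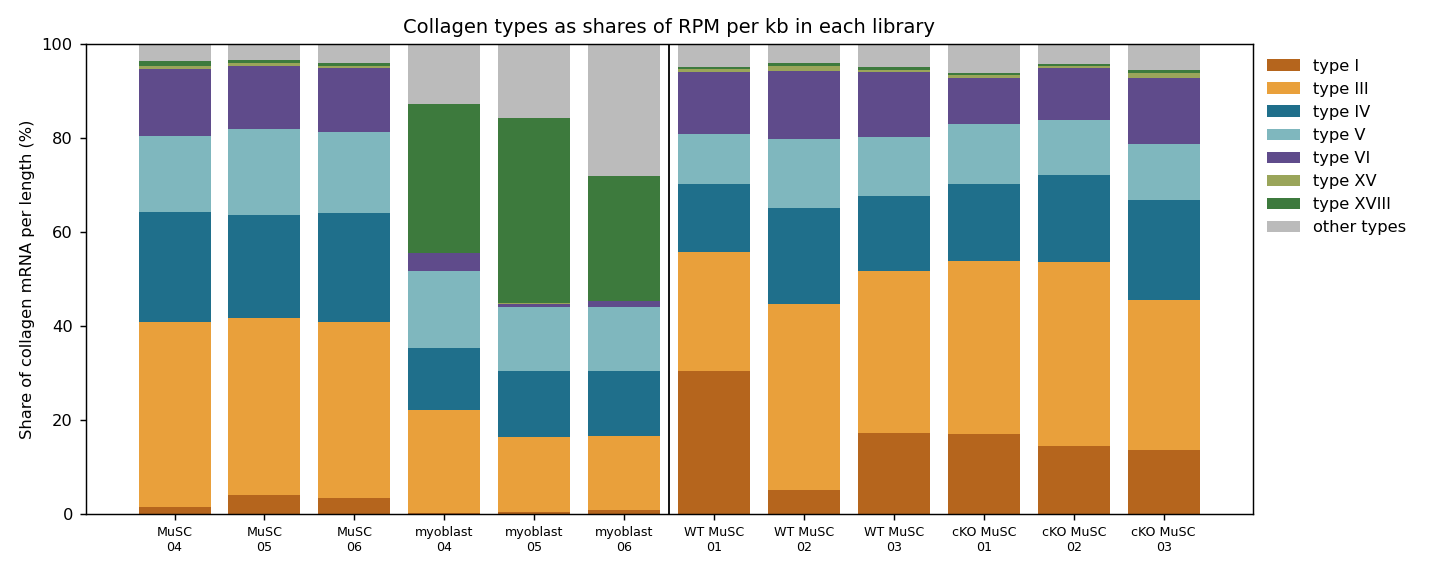
Share of each collagen type in the summed RPM per kilobase of transcript, in percent, for the 12 libraries; the line separates the 2 tables, which were normalized separately. Type XVIII is the largest single type in the myoblast libraries (27 to 39%), and type I varies from 5.02 to 30.4% among WT libraries of the second table.

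Genes for the synthesis and processing of collagen moved in both directions between MuSCs and myoblasts. Of 34 such genes 30 were tested, with 9 higher and 8 lower in myoblasts (56.7% called, against 42.8% of all tested genes) and a median log2 fold change of -0.02. Among the 9, P4ha3 and Loxl4 reached the minimum of the filter on low values in no MuSC library, and Lox in MuSC replicate 06 alone. Serpinh1, which encodes the collagen chaperone HSP47, was at 149, 241 and 243 RPM in MuSCs and 1021, 751 and 598 RPM in myoblasts (log2 fold change 1.90, SE 0.26, limma adjusted p = 5.78e-04). Fkbp10, another chaperone of the endoplasmic reticulum, rose by 1.68, and Plod2, a lysyl hydroxylase for telopeptide cross-links, by 1.37 on the log2 scale (limma adjusted p = 5.52e-04 and 0.00225). P4ha3, a prolyl hydroxylase subunit, was at 0.03304, 0.0349 and 0 RPM in MuSCs and 5.06, 5.66 and 3.29 RPM in myoblasts, and the cross-linking enzyme Lox at 0.123, 0.0976 and 2.22 RPM and 1.12, 13.6 and 7.09 RPM.

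Falling genes of the same list included P4ha2, another prolyl hydroxylase subunit (log2 fold change -1.53), Bmp1, the C-propeptide proteinase (-1.75), and Tram2, which acts in type I collagen synthesis (-1.72). Loxl2, a lysyl oxidase active on type IV collagen (-2.08), and Mia2, a cargo receptor for collagen export (-1.42), fell as well. Limma adjusted p-values of these 5 genes ran up to 0.0105. Serpinh1 and Col3a1 thus moved in opposite directions in each of the 3 mice.

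Of 13 collagen receptor genes 12 were tested, and 4 (33.3%) were called, 3 higher and 1 lower in myoblasts, against 42.8% of all tested genes. Of the 3 higher genes, Adgrg1 and Adgrg6 passed the filter on low values only through the myoblast libraries. Calcr, the calcitonin receptor that binds type V collagen on MuSCs, was at 289, 141 and 166 RPM in MuSCs and 0.0978, 0.06201 and 0.295 RPM in myoblasts (-7.38, SE 0.33, limma adjusted p = 1.60e-06). Ddr1, a discoidin domain receptor tyrosine kinase, was at 54.3, 44.02 and 36.2 RPM and 165, 223 and 151 RPM (1.98, SE 0.23, limma adjusted p = 2.39e-04). Adgrg1, an adhesion receptor for type III collagen, was listed at 0 in all 3 MuSC libraries and was at 12.98, 20.4 and 11.6 RPM in myoblasts. Adgrg6, which binds type IV collagen, was at 0, 0 and 0.0674 RPM and 1.497, 1.13 and 2.13 RPM.

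Other genes moved with these collagens. Summed MuSC markers ran from 5131 to 7195 RPM in MuSCs and 816 to 888 RPM in myoblasts. Of them 8 of 10 were lower (80% called, against 42.8% of all tested genes). Of 12 fibro-adipogenic markers 8 were tested, with 3 lower and 2 higher (62.5% called). Smoc2, higher, had no MuSC library at the filter minimum, and Dpt, lower, no myoblast library. Ly6a, higher, reached it in MuSC replicate 05 alone, and Dcn, lower, in myoblast replicate 05 alone. Summed levels were 1376 to 1835 RPM in MuSCs, mostly from Gsn and Dpt. In myoblasts they were 150 to 203 RPM, mostly from Gsn, with Dpt at 0 in each library. Pdgfra and Ly6a stayed at or below 2.83 RPM. Of 8 myofiber genes 6 were higher (75% called), with sums of 140 to 394 RPM and 10820 to 24597 RPM. Their part in the collagen results was not tested.

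No collagen chain was called between Nedd4L-cKO and WT MuSCs. With the study's thresholds (adjusted p up to 0.05, a log2 change of 1 or more in either direction, a mean level of 5 RPM or more), limma called 0 of 37 tested chains, against 0.653% of all tested genes. With the adjusted p as the only criterion the count was also 0, against 0.784% (0.523% higher, 0.261% lower). At the study's thresholds the paper, which used DESeq2, reported more differentially expressed genes than limma called here. The absence of called chains is therefore a result of limma and not of the paper's test, whose values for the chains were not used. An unadjusted p under 0.05 was reached by 7 chains (18.9%), 5 higher and 2 lower in Nedd4L-cKO MuSCs, against 14.6% of all genes. Groups did not overlap for 7 chains (18.9%), against 19.3%. The median log2 fold change was -0.01 over the chains and 0.00 over all tested genes. The collagen share of normalized counts was 0.458, 0.302 and 0.342% in WT and 0.252, 0.315 and 0.347% in Nedd4L-cKO libraries, with overlap.

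**Figure D3:**
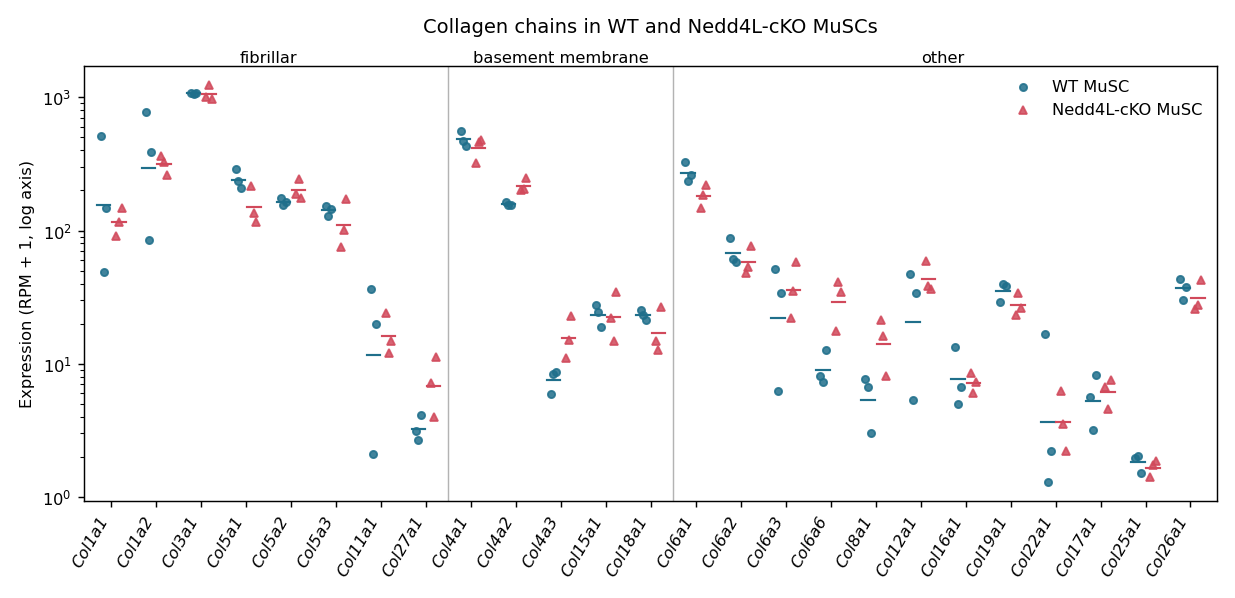
Expression of the 25 named collagen chains of the second table, as RPM + 1 on a log axis, in 3 WT (circles) and 3 Nedd4L-cKO (triangles) MuSC libraries, with the mean of the log values as a bar. Groups lie apart for Col4a2, Col4a3, Col5a2, Col6a1, Col6a6 and Col8a1 and intermingle for the others.

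The most abundant chain, Col3a1, had similar means in both genotypes. It was at 1083, 1052 and 1085 RPM in WT and 1012, 1226 and 969.7 RPM in Nedd4L-cKO MuSCs, a log2 difference of -0.01 (SE 0.22, limma adjusted p = 0.986). The 95% interval of this difference, from -0.50 to 0.48, leaves room for changes of that size. Other abundant chains, described with their types, had larger differences that were not called, among them Col5a1 (-0.69), Col6a1 (-0.57) and Col4a2 (0.46) on the log2 scale. Col4a1 was at 558, 468 and 428 RPM in WT and 319.7, 461 and 477 RPM in Nedd4L-cKO MuSCs, overlapping (limma adjusted p = 0.728).

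Col6a6, the long type VI chain, was nearest to the threshold. It was at 7.09, 6.24 and 11.6 RPM in WT and 16.6, 40.3 and 33.6 RPM in Nedd4L-cKO MuSCs, without overlap (log2 difference 1.70, SE 0.38, limma adjusted p = 0.0648). It passed when a gene had to reach 10 normalized counts in each library to be tested (limma adjusted p = 0.0272), without WT replicate 03 (0.0439) and without Nedd4L-cKO replicate 01 (0.0415), and the adjusted p reached 0.221 under other alternatives. Its promoter, on the - strand of chromosome 9 of GRCm38.p6, chr9:105828036-105828335, is shown because Col6a6 was the only chain called under any alternative. Capitals mark GC boxes and TGGGAA on either strand.
Col6a6: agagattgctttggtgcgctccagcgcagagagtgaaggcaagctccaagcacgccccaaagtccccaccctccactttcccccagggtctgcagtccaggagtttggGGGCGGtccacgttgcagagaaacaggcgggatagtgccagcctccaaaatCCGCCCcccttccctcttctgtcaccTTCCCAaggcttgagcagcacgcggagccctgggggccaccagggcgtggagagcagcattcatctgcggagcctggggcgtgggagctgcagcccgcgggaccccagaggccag

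The partner Col6a1 was at 324, 234 and 259 RPM in WT and 147, 185 and 219 RPM in Nedd4L-cKO MuSCs, without overlap and in the other direction (log2 difference -0.57, SE 0.25, limma adjusted p = 0.328). The ratio of Col6a1 to Col6a6 per length was accordingly 103, 84.9 and 50.4 in WT and 20.1, 10.4 and 14.7 in Nedd4L-cKO libraries. Col6a2 was at 87.7, 59.7 and 56.6 RPM and 46.8, 52.3 and 75.2 RPM, overlapping.

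Within type IV, Col4a2 and Col4a3 had higher values in every Nedd4L-cKO library than in any WT library, and neither passed the test. Col4a2 was at 162, 156 and 154 RPM in WT and 199.9, 203 and 249 RPM in Nedd4L-cKO MuSCs (log2 difference 0.46, SE 0.23, limma adjusted p = 0.387). Col4a3 was at 4.95, 7.44 and 7.702 RPM and 10.1, 14.1 and 21.99 RPM (1.05, SE 0.36, limma adjusted p = 0.213). Col4a4, which shares a trimer with Col4a3 and lies beside it head to head on chromosome 1, was also non-overlapping and not called. The ratio of Col4a1 to Col4a2 was 3.503, 3.07 and 2.84 in WT and 1.63, 2.31 and 1.96 in Nedd4L-cKO libraries, without overlap. Of the 6 ratios of partner chains, some of which share a chain, 4 did not overlap between the genotypes. This count has no background share from other gene pairs beside it, and no test was made of it.

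In type V, Col5a1 was at 286, 235 and 206 RPM in WT and 216, 135 and 114 RPM in Nedd4L-cKO MuSCs, overlapping (log2 difference -0.69, SE 0.28, limma adjusted p = 0.301). Col5a2 was at 174, 154 and 164 RPM and 187, 243 and 175 RPM, without overlap but not called (0.28, SE 0.24, limma adjusted p = 0.624). Per length, Col5a1 to Col5a2 gave 1.47, 1.37 and 1.12 in WT and 1.03, 0.496 and 0.584 in Nedd4L-cKO libraries. Col5a3 was at 152, 128 and 145 RPM and 73.7, 100.4 and 171 RPM, overlapping.

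Col8a1, which was among the chains that rose in culture, was at 6.699, 5.65 and 2.04 RPM in WT and 20.4, 15.1 and 7.16 RPM in Nedd4L-cKO MuSCs, without overlap (log2 difference 1.39, SE 0.46, limma adjusted p = 0.199). Col27a1 was at 2.16, 1.67 and 3.13 RPM and 6.19, 3.000 and 10.2 RPM, with slight overlap (1.07, SE 0.43, limma adjusted p = 0.284). Col18a1 was at 24.3, 22.4 and 20.1 RPM and 13.8, 11.6 and 25.5 RPM, overlapping and with the lower mean in Nedd4L-cKO MuSCs (limma adjusted p = 0.569). Col25a1 was at 0.981, 1.02 and 0.511 RPM and 0.424, 0.726 and 0.857 RPM, low in both groups.

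No mural cell marker was called between the genotypes, and the part of these markers in the collagen results was not tested. Summed over 7 genes they ran from 1196 to 1943 RPM in WT and from 2193 to 3269 RPM in Nedd4L-cKO libraries, most of it from Rgs5 and Acta2. Limma gave 5 of 7 (71.4%) an unadjusted p under 0.05, against 14.6% of all tested genes, and Acta2 and Myh11 did not overlap between the groups. The pericyte marker Rgs5 was at 280.1, 569.8 and 1034 RPM in WT and 355, 1270.4 and 1945 RPM in Nedd4L-cKO libraries, and Pdgfrb, which encodes a receptor of mural cells, at 9.36, 9.53 and 31.3 RPM and 21.9, 33.4 and 53.9 RPM. Both overlapped between the genotypes. Acta2, the smooth muscle actin, was at 949, 513 and 700.4 RPM and 1661, 1066 and 993 RPM. No mural marker was at 0 in these libraries. In the MuSC libraries of the first table the list summed to 1126 to 1421 RPM, nearly all of it Acta2 at 1382, 1341 and 1078 RPM, with Rgs5 at 16.6, 4.44 and 8.44 RPM.

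**Figure D4:**
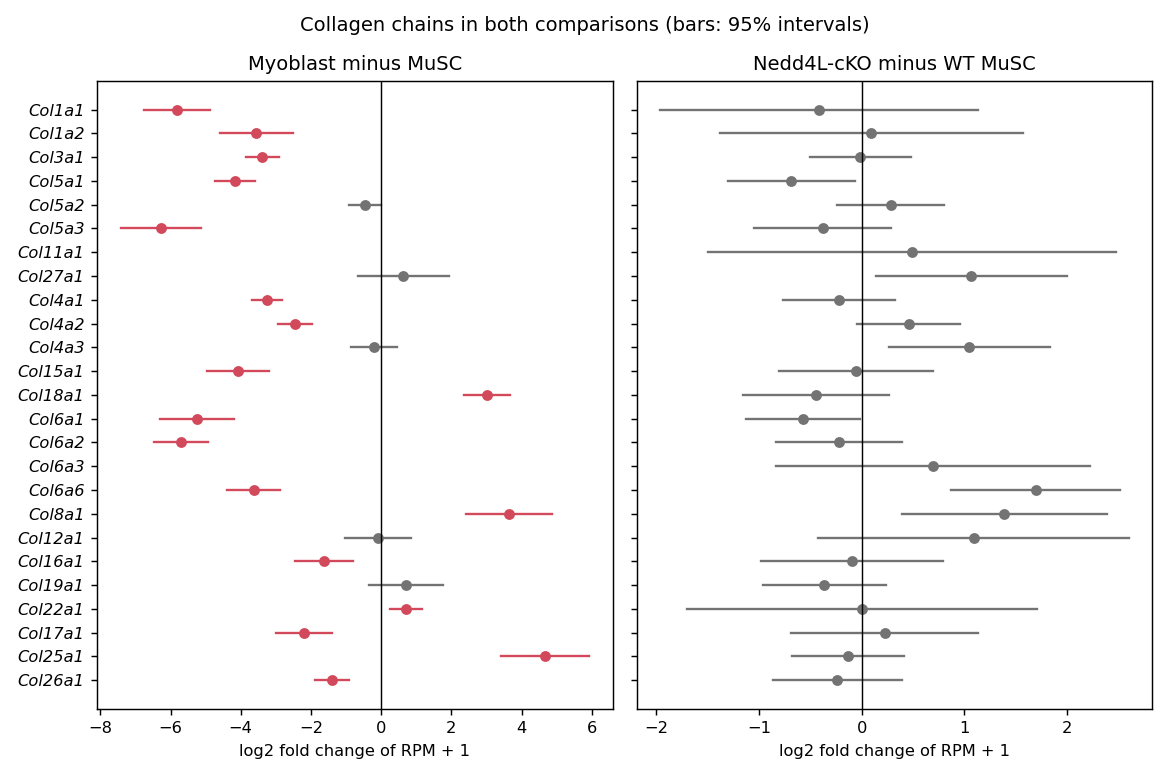
Log2 fold changes of RPM + 1 with 95% intervals for the 25 named chains, myoblasts against MuSCs on the left and Nedd4L-cKO against WT MuSCs on the right, on axes of different width. Red marks chains called by limma; red is found on the left only, and the wide intervals on the right belong to Col1a1, Col1a2, Col6a3, Col11a1, Col12a1 and Col22a1.

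A group of 6 named chains was picked by a wide range among WT libraries, the highest more than 5-fold above the lowest. Low chains without values of their own were left aside, although some, such as Col2a1 (23.5-fold), also had a wide WT range. Col1a1 was at 512, 47.6 and 146 RPM in WT replicates 01, 02 and 03 and at 89.6, 115 and 147 RPM in Nedd4L-cKO MuSCs (log2 difference -0.41, SE 0.69, limma adjusted p = 0.825). Col1a2 was at 780.4, 84.2 and 387 RPM in WT and 363, 327 and 262 RPM in Nedd4L-cKO MuSCs (0.09, SE 0.66, limma adjusted p = 0.964). WT replicate 01 was the highest of the 6 libraries for both chains and WT replicate 02 the lowest.

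Col6a3, the third type VI chain, was at 50.04, 5.22 and 33.1 RPM in WT and 21.2, 34.2 and 57.4 RPM in Nedd4L-cKO MuSCs. Col11a1, a nucleator of cartilage and tendon fibrils listed only in this table, was at 35.7, 1.11 and 18.98 RPM and 23.1, 11.1 and 13.8 RPM. Col12a1 was at 46.5, 4.35 and 32.7 RPM and 58.3, 37.2 and 35.6 RPM. Col22a1 of the myotendinous junction was at 15.6, 0.307 and 1.23 RPM and 5.22, 2.55 and 1.21 RPM. All 4 chains were lowest in WT replicate 02, and their limma adjusted p-values ran from 0.499 to 0.999.

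In these 6 chains the highest WT library exceeded the lowest by 9.27- to 50.9-fold, and in the other 19 named chains the largest such factor was 3.28. Since the 6 were picked by this factor, the contrast describes the choice and is no separate result. All 6 had the order of WT replicate 01 above 03 above 02, which 11 of the 25 named and 14 of the 38 listed chains showed. The share of all genes with this order was not computed. Without WT replicate 01 the log2 difference of Col1a1 was 0.45, and without WT replicate 02 that of Col1a2 was -0.80 and that of Col11a1 was -0.73, so that the sign of these differences rested on single libraries.

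Tendon markers and some markers of other cells had the same order over the WT libraries, and their part in the collagen values was not tested. Tnmd, the tendon membrane protein tenomodulin, was at 499, 62.02 and 237 RPM in WT and 655, 261 and 132 RPM in Nedd4L-cKO libraries. The collagen-binding proteoglycan Fmod was at 606, 75.8 and 293 RPM and 230.5, 187 and 106 RPM, and Thbs4, a thrombospondin of tendon and myotendinous junction, at 386, 29.3 and 153 RPM and 225, 185 and 79.8 RPM. Over Nedd4L-cKO replicates 01, 02 and 03 these markers fell, whereas Col1a1 (89.6, 115 and 147 RPM) and Col6a3 (21.2, 34.2 and 57.4 RPM) rose. Col1a2, Col12a1 and Col22a1 fell there as well, and Col11a1 was lowest in replicate 02. Within the tendon list Comp, Scx and Mkx had narrower WT ranges than Tnmd, Fmod and Thbs4. All 7 tendon markers of the list, named after their values were seen, were highest in WT replicate 01 and lowest in WT replicate 02 among WT libraries. Their summed level ran from 220 to 1967 RPM in WT and from 438 to 1542 RPM in Nedd4L-cKO libraries, none was at 0, and 0 were called. The order of WT replicate 01 above 03 above 02 was also that of 4 of 12 fibro-adipogenic markers (Pdgfra, Mfap5, Smoc2 and Cd55), 12 of 32 collagen synthesis genes, 3 of 9 small leucine-rich proteoglycans (2 of them, Fmod and Kera, also in the tendon list) and 1 of 7 mural markers. Lowest in WT replicate 02 among WT libraries were 7 of the 12 fibro-adipogenic markers and 8 of the 9 proteoglycans. Of 10 MuSC markers 8, Pax7 among them, were highest in WT replicate 02, whereas Itga7 and Cdh15 were lowest there.

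**Figure D5:**
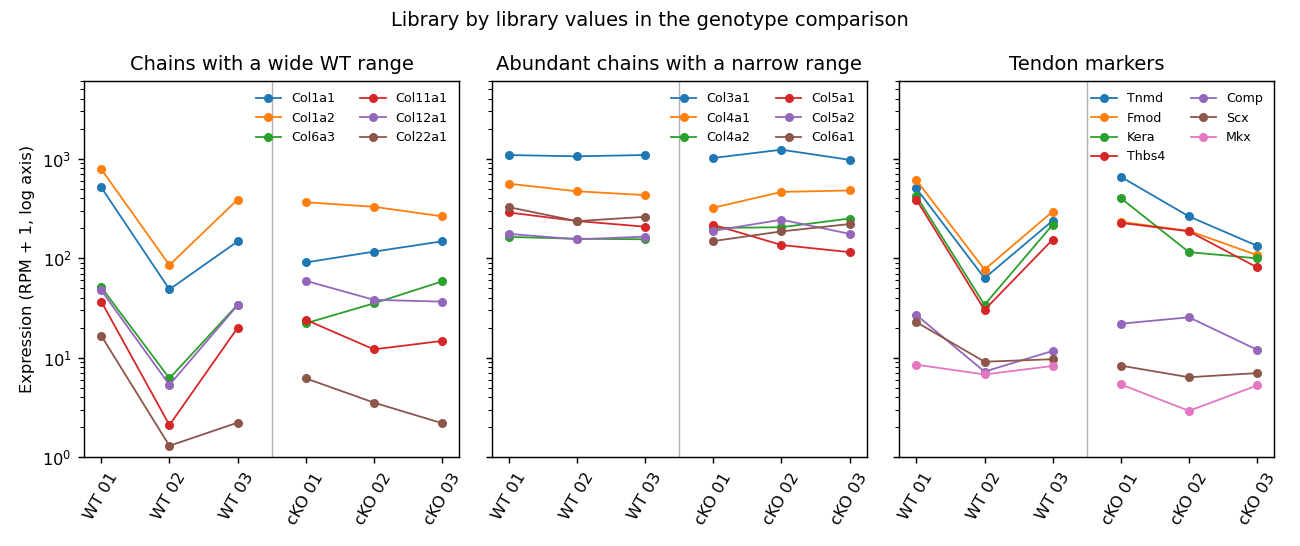
RPM + 1 on a log axis in each WT and Nedd4L-cKO MuSC library, for the 6 chains with a wide range among WT libraries, for 6 abundant chains with a narrow range and for 7 tendon markers; lines only connect libraries of 1 genotype and imply no order. The 6 chains on the left and the 7 tendon markers are all lowest among WT libraries in replicate 02, by 9.27-fold or more below the highest WT library for these chains; the WT values of the 6 abundant chains lie close together.

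The type I share of collagen mRNA per length varied in the same way. It was 30.4, 5.02 and 17.2% in WT and 16.9, 14.4 and 13.6% in Nedd4L-cKO libraries, so that the Nedd4L-cKO libraries fell within the WT range. In the MuSC libraries of the first table it was 1.46, 4.07 and 3.27%. Of the 7 tendon markers 3 were listed in that table, Scx, Mkx and Thbs4, with a summed level of 10.9 to 11.8 RPM in MuSCs, and Col6a3 was at no more than 0.0549 RPM there. The tables were normalized separately and hold different mice, so these levels are set side by side without a test.

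The remaining named chains overlapped between the genotypes. Col15a1 was at 26.5, 23.4 and 17.97 RPM in WT and 21.1, 13.8 and 33.7 RPM in Nedd4L-cKO MuSCs, Col19a1 at 28.3, 38.5 and 37.6 RPM and 22.05, 33.2 and 25.4 RPM, and Col26a1 at 42.5, 29.4 and 36.7 RPM and 24.9, 26.6 and 41.5 RPM. Col16a1 was at 12.5, 4.03 and 5.72 RPM and 7.47, 5.09 and 6.26 RPM, and Col17a1 at 4.66, 2.21 and 7.18 RPM and 5.76, 3.59 and 6.62 RPM. Limma adjusted p-values of these 5 chains ran from 0.579 to 0.957. The 13 chains without values of their own, among them Col14a1 and Col4a6, ran from 0 to 8.15 RPM, and 12 of them were tested.

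Neither the synthesis genes nor the receptors held a call between the genotypes. Of 32 tested genes for collagen synthesis and processing, limma called 0, and 5 (15.6%) had an unadjusted p under 0.05, against 14.6% of all tested genes. Of 12 tested receptors 0 were called and 2 (16.7%) had an unadjusted p under 0.05, Calcr and Itga1. Calcr was at 268, 304 and 254 RPM in WT and 117, 204 and 131 RPM in Nedd4L-cKO MuSCs, without overlap (log2 difference -0.90, SE 0.27, limma adjusted p = 0.152). The paper, which used DESeq2, names Calcr among its most significantly reduced genes in Nedd4L-cKO MuSCs, so the 2 tests differ on this gene. Itga1, a collagen-binding integrin subunit, was at 11.8, 32.1 and 30.7 RPM and 50.96, 69.4 and 87.02 RPM, also without overlap (1.53, SE 0.37, limma adjusted p = 0.0929). The median log2 difference was -0.14 over the synthesis genes and -0.01 over the receptors.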

How the data were processed

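RNA of 12 libraries from 1000 cells each was analysed, 3 per group, with groups taken from the sample labels. The authors quantified transcripts with kallisto 0.46.1 (named in the submitters' processing notes) on GENCODE basic annotation, summed them with tximport and ran DESeq2; SMART-seq reads carry no strand. The deposited values are a signal: counts after DESeq2 normalization by the authors, with each comparison in its own table. Reads were not recovered, so depth is unknown and no counting interval is given. Deposited fold changes and p-values were not used.

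RPM values divide each value by the mean of the 6 totals of its table. Genes that reached 10 normalized counts in 3 or more of 6 libraries were tested on log2(RPM + 1) with limma 3.58.1 (R 4.3.3; trend and robust moderation, group as the only term, Benjamini-Hochberg over all tested genes), 15345 genes in the first table and 15304 in the second. The fit was tested on simulated data. Calls used an adjusted p of at most 0.05, and between genotypes also a log2 change of 1 or more in either direction and a mean level of 5 RPM or more. An exact permutation test of 3 against 3 libraries cannot go below p = 0.1 and was not used. Chains with a mean of at least 5 RPM in a group are named with values. Chain ratios and shares used the longest coding transcript of GENCODE M39 on GRCm39, and promoters are RefSeq's on GRCm38.p6 (Python 3.11.15). The members and gene lists were chosen with earlier results of these data known, and the tendon genes were named after their values were seen. MuSC and myoblast libraries of the same number come from the same mouse by their labels, with correlations of deviations from group means of -0.03, -0.01 and 0.02. Alternatives were another pseudocount, filters, scalings, moderation, the replicate block and each library left out. No batch or date was given in the sources used here.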

Additional observations from a re-analysis of the deposited data

How the results depend on the processing

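Between MuSCs and myoblasts, the 22 called chains (7 higher, 15 lower) became 12 (1 higher) when at least 10 normalized counts were required in every library, where fewer chains were tested, and ranged from 19 to 21 (higher from 4 to 6) without 1 library each. With the mouse as a replicate block 23 chains were called, and 6078 of all genes in place of 6566; between genotypes the block, which there pairs different mice by number only (correlations 0.02, -0.02 and -0.18), called 0 chains and 62 genes in place of 100, and it changed no call of a named chain. Between genotypes the count of 0 became 1 (higher, Col6a6) with the filter on every library and ranged from 0 to 1 without 1 library each. The count over all genes was 195 with that filter, 41 without trend and robust moderation, and 17 to 148 without 1 library each.

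Scaling each library to its own total moved the median log2 fold change of all genes from 0.04 to 0.14 in culture and from 0.00 to -0.09 between genotypes, and the higher share of calls from 51.8 to 58.8% and from 69.0 to 56.3%. It reversed uncalled differences of Col12a1 in culture (0.0314) and of Col1a2 (-0.0353) and Col22a1 (-0.0875) between genotypes. Without 1 library each, uncalled log2 differences changed sign for Col12a1 (-0.40 to 0.30) and Col4a3 (-0.37 to 0.0274) in culture. Between genotypes they did for Col1a1 (-1.25 to 0.45), Col1a2 (-0.80 to 0.80), Col3a1 (-0.12 to 0.0537), Col6a3 (-0.22 to 1.29), Col11a1 (-0.73 to 1.32), Col15a1 (-0.37 to 0.25), Col16a1 (-0.40 to 0.31), Col17a1 (-0.14 to 0.54) and Col22a1 (-0.74 to 1.09).

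With summed exonic length in place of the longest coding transcript, mean chain ratios were, in MuSCs, WT and Nedd4L-cKO, 3.27, 1.03 and 0.744 for Col1a1 to Col1a2, and 3.69, 1.89 and 1.01 for Col5a1 to Col5a2 (0.273 in myoblasts). Col4a1 to Col4a2 gave 3.02 in MuSCs, and Col6a1 to Col6a2 gave 7.65 in WT and 6.01 in Nedd4L-cKO MuSCs. The cause of the changes that single libraries or scaling made was not tested. Depth is unknown, and 3 libraries per group limit the precision of chains with few counts.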

Other observations

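Small leucine-rich proteoglycans bind collagen fibrils and limit their width. Of 9 such genes 5 were tested between MuSCs and myoblasts, with 2 lower and 0 higher (limma). These 40% called lie near the 42.8% of all tested genes. Prelp, which anchors basement membranes to connective tissue, was at 142, 267 and 172 RPM in MuSCs and 0.547, 0.159 and 0.124 RPM in myoblasts (log2 fold change -7.22, SE 0.33, limma adjusted p = 1.59e-06). Decorin, encoded by Dcn, was at 5.75, 46.1 and 19.8 RPM and 0.0144, 0.702 and 0.217 RPM (-3.87, SE 0.63, limma adjusted p = 0.00142). Neither gene overlapped between the groups.

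Between Nedd4L-cKO and WT MuSCs limma called 0 of the 9 proteoglycans, and 2 (22.2%) had an unadjusted p under 0.05, against 14.6% of all tested genes. Dcn was at 1091, 193 and 1237 RPM in WT and 2208, 672 and 210.0 RPM in Nedd4L-cKO libraries, an overlap that spanned a factor of 10.5 within the Nedd4L-cKO group. Prelp was at 146, 115 and 129 RPM and 198, 185 and 143 RPM. Of 7 tendon markers 2 were tested in culture and 1 was called (50%, against 42.8% of all tested genes). This was Scx, a tendon transcription factor, at 9.39, 9.74 and 8.55 RPM in MuSCs and 20.7, 105 and 76.99 RPM in myoblasts (log2 fold change 2.46, SE 0.52, limma adjusted p = 0.00526). Col1a1 fell in the same libraries.

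Of the other marker lists in culture, 0 of 2 tested endothelial and 0 of 2 tested glial genes were called. Of 4 tested immune genes 3 were called (75%, against 42.8% of all tested genes), all below 4 RPM. Itgam, higher, passed the filter on low values only through the myoblast libraries, and Cd79a, lower, reached its minimum in myoblast replicate 06 alone. Between genotypes 0 genes of these lists were called by limma. An unadjusted p under 0.05 in limma was reached there by 1 of 5 immune (20%) and 2 of 6 glial genes (33.3%). It was reached by 4 of 10 MuSC markers (40%) and 5 of 8 myofiber genes (62.5%), against 14.6% of all tested genes. Of 10 MuSC markers 1 (10%) was lower in Nedd4L-cKO libraries by limma, where 0.784% of all tested genes were called. Their summed levels were 4221 to 7960 RPM in WT and 2893 to 6704 RPM in Nedd4L-cKO libraries. Of 8 myofiber genes 1 (12.5%) was higher, with sums of 188 to 385 RPM and 487 to 644 RPM. Of 12 fibro-adipogenic markers 0 were called, none of them at an unadjusted p under 0.05. Mural markers in culture were lower for 1 of 7 tested genes (14.3%, against 42.8% of all tested genes). This was Kcnj8, which passed the filter on low values only through the MuSC libraries. Mural sums were 1126 to 1421 RPM in MuSCs and 1666 to 2430 RPM in myoblasts.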
